A study of Mus musculus with 6 samples.

Results

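In whole lungs of TNF-Tg (TNF+) mice, genes expressed in the cardiac muscle that surrounds the pulmonary veins were lower than in lungs of their wildtype (WT, TNF-) littermates. The set comprised 10 genes, Myh6, Myl7, Myl4, Tnnt2, Tnni3, Actc1, Nppa, Ryr2, Pln and Sln, chosen by symbol from the 49568 gene symbols of the deposited table of raw counts, and all 10 were found once in it. Their counts per lung ranged from 57 to 5874 in TNF+ lungs and from 279 to 25529 in TNF- lungs. The data were bulk RNA-sequencing of poly(A) RNA, 1 library per mouse, from 3 TNF+ and 3 TNF- lungs. TNF+ mice carry a single copy of a human TNF transgene and overexpress it. TNF- mice are littermates without it, and both groups were female, 4 months old and on a C57BL/6 background. The human transgene itself was not analysed here.

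In mice, a sleeve of striated cardiac muscle continues from the left atrium along the pulmonary veins into the lung, so that whole lung RNA holds transcripts of cardiomyocytes. These cells use the contractile isoforms of the atrium, among them the myosin light chains Myl7 and Myl4, and they store the natriuretic peptide Nppa. Contraction starts when calcium leaves the sarcoplasmic reticulum through Ryr2 and binds the troponin complex on the actin filament, and it ends when the calcium pump Atp2a2, restrained by the small membrane proteins Pln and Sln, takes the calcium back.

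Total counts were 25396923 to 30049463 per TNF+ lung and 31400978 to 32529408 per TNF- lung, so that 3 counts, the smallest level taken as detectable, corresponded to 0.0922 to 0.118 CPM (a count as a share of the library total, in parts per 1000000 reads). The totals were adjusted by the trimmed mean of M-values (TMM) factor. A pair of libraries stood apart. In TNF- replicate 1, 16 skeletal muscle genes summed to 2150 CPM and 9 squamous epithelium genes to 3660 CPM, against at most 66.6 and 32.7 CPM in any other lung. In TNF+ replicate 1, Gm42418, a gene that overlaps ribosomal RNA sequence, took 5.22% of the counts, against 0.0774% to 0.274% in the others. With both of these lungs left out, the 10 genes were each still called lower, as were 17.4% of all genes tested. The lung markers Sftpc, Sftpb, Ager, Scgb1a1, Foxj1, Cdh5 and Pecam1 summed to 17500 to 22400 CPM in TNF+ and 35100 to 41900 CPM in TNF- lungs, so lung tissue was present in every library.

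None of the 10 genes was lost to the filter on low counts, and all 10 were lower in TNF+ lungs at an adjusted p-value under 0.05 (quasi-likelihood test of edgeR, Benjamini-Hochberg method). Among all 19199 genes tested, 23.4% were called lower and 47.4% were called in either direction (24% higher). Log2 fold changes of the 10 genes lay between -2.55 and -1.04 with a median of -1.78, where the median of all genes tested was 0.03. None of the 10 had overlapping groups, which held with TNF+ lower for 28.1% of all genes tested. The summed level of the 10 genes was 364, 415 and 341 CPM in TNF+ replicates 1, 2 and 3 and 1560, 1370 and 1190 CPM in TNF- replicates 1, 2 and 3. The means were 373 ± 37.6 CPM and 1370 ± 189 CPM (SD, n = 3 lungs each), a 3.68-fold lower sum in TNF+ lungs, which fell by 1.88 on the log2 scale. Myh6 made up 46.9% to 51.3% of this sum, and without it the sums were 195 ± 17.3 and 692 ± 73.5 CPM, 3.54-fold lower in TNF+ lungs. In bulk samples, fewer cells of a type and less RNA per cell cannot be told apart. Nor can muscle of the veins and of the atrium, which use the same isoforms, or the amount of either taken with the lung.

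**Figure D1:**
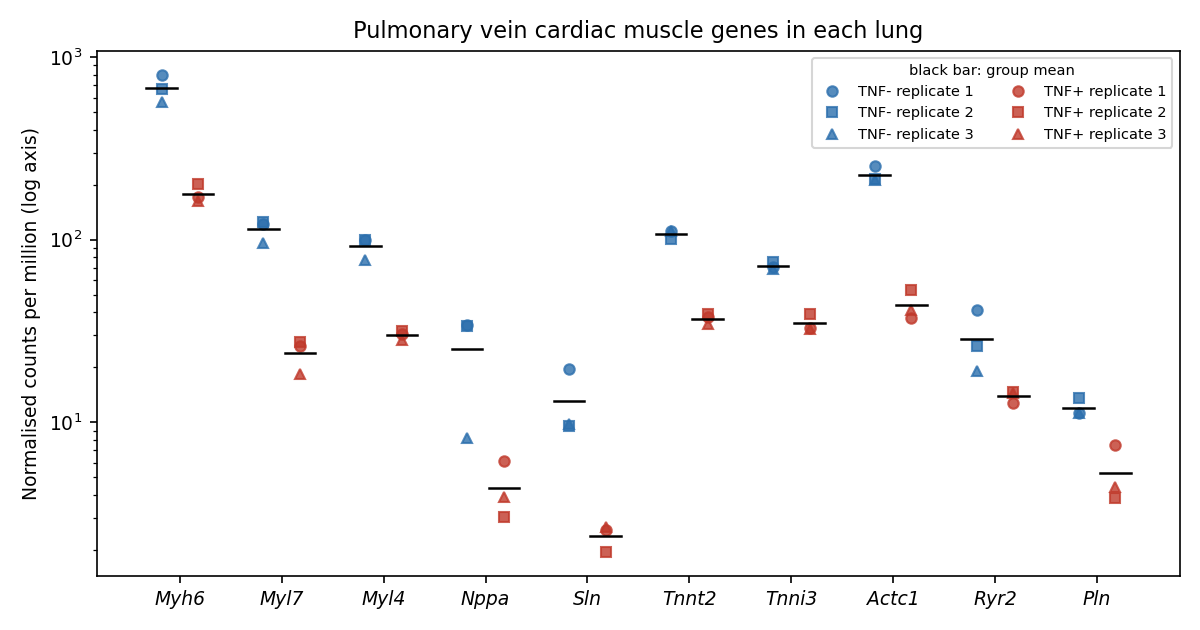
CPM (TMM-scaled, log axis) of the 10 pulmonary vein cardiac muscle genes in each of the 3 TNF+ and 3 TNF- lungs, with each point 1 lung and the black bars group means. The TNF+ points lie below every TNF- point for all 10 genes, with the narrowest gaps for Nppa and Ryr2.

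The thick filament was represented by Myh6, the α myosin heavy chain that is the main motor of mouse cardiac muscle, and by the light chains bound to it. Myh6 (chromosome 14 of GRCm38, 54941921 to 54966927, minus strand) had 171, 201 and 162 CPM in TNF+ lungs and 802, 669 and 571 CPM in TNF- lungs. Every TNF- lung was far above every TNF+ lung, by 2.85-fold between the nearest values. Myh6 fell by 1.94 on the log2 scale (standard error, SE, 0.16, adjusted p = 5.27e-05 by edgeR), which made its mean 3.83-fold lower. Myl7, the atrial regulatory light chain (chromosome 11, 5896637 to 5898782, minus strand), had 26.0, 27.4 and 18.3 CPM in TNF+ and 122, 125 and 96.3 CPM in TNF- lungs. It was low in all TNF+ lungs and lowest in TNF+ replicate 3, and its log2 fold change was -2.26 (SE 0.18, adjusted p = 4.13e-05). Myl4, the essential light chain of the atrium (chromosome 11, 104550663 to 104595753, plus strand), had 30.5, 31.4 and 28.1 CPM in TNF+ and 99.2, 99.8 and 77.5 CPM in TNF- lungs. Its TNF+ lungs were nearly level with each other, and its log2 fold change of -1.62 (SE 0.12, adjusted p = 3.34e-05) was smaller in size than that of its partner Myl7.

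Of the thin filament genes, Actc1 changed most. Actc1, cardiac α-actin (chromosome 2, 114047282 to 114053548, minus strand), had 37.4, 53.3 and 41.0 CPM in TNF+ and 252, 216 and 212 CPM in TNF- lungs. The groups were widely apart, and Actc1 fell by 2.37 on the log2 scale (SE 0.16, adjusted p = 1.92e-05), a 5.17-fold lower mean. Tnnt2, the cardiac troponin T that ties the troponin complex to tropomyosin (chromosome 1, 135836354 to 135852260, plus strand), had 37.5, 39.0 and 34.3 CPM in TNF+ and 111, 101 and 112 CPM in TNF- lungs. Both groups were tight, and the log2 fold change of -1.55 had the smallest adjusted p of the 10 genes (SE 0.10, adjusted p = 1.46e-05). Tnni3, the cardiac troponin I that holds contraction off at low calcium (chromosome 7, 4518305 to 4524229, minus strand), had 32.7, 39.3 and 32.3 CPM in TNF+ and 71.1, 75.5 and 68.8 CPM in TNF- lungs. It too was lower in every TNF+ lung, but its log2 fold change, -1.05 (SE 0.10, adjusted p = 0.000131), was less than that of Actc1 or Tnnt2 in size. Tnni3 shares 86 exon bases, 4.17% of its exon bases, with Dnaaf3 on the same strand. Dnaaf3 had 502 to 829 counts in TNF+ and 526 to 964 counts in TNF- lungs, and its part in the Tnni3 values was not tested.

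Calcium handling genes fell to unequal extents. Ryr2, the calcium release channel (chromosome 13, 11553102 to 12106945, minus strand), had 12.8, 14.6 and 14.5 CPM in TNF+ and 41.0, 26.1 and 19.1 CPM in TNF- lungs. The TNF- lungs were spread, replicate 1 being highest, and the nearest values of the groups were 1.31-fold apart. Its log2 fold change was -1.04 (SE 0.25, adjusted p = 0.0106), and without TNF- replicate 1 it was -0.72 (adjusted p = 0.0115). Pln, phospholamban (chromosome 10, 53337667 to 53345987, plus strand), had 7.53, 3.83 and 4.43 CPM in TNF+ and 11.2, 13.6 and 11.3 CPM in TNF- lungs. TNF+ replicate 1 was the high lung of its group, and the log2 fold change was -1.20 with it (SE 0.25, adjusted p = 0.00553) and -1.58 without it (adjusted p = 0.000724). Of the exon bases of Pln, 5.11% are shared with Cep85l (118 to 352 counts) and 59.6% with Gm47644, which was not analysed here, both on the opposite strand. Sln, sarcolipin, the regulator of the calcium pump found in atrial rather than ventricular muscle (chromosome 9, 53850164 to 53854560, plus strand), had 2.57, 1.95 and 2.65 CPM in TNF+ and 19.5, 9.54 and 9.81 CPM in TNF- lungs. TNF- replicate 1 was well above the other 2 TNF- lungs, which were alike, and Sln fell by 2.44 on the log2 scale with that lung (SE 0.32, adjusted p = 0.000511) and by 2.04 without it (adjusted p = 0.000331).

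Nppa, the precursor of atrial natriuretic peptide, which lowers blood volume and pressure (chromosome 4, 148000722 to 148002079, plus strand), had the lowest log2 fold change and the widest spread. It had 6.14, 3.01 and 3.90 CPM in TNF+ and 34.0, 33.6 and 8.20 CPM in TNF- lungs. TNF- replicates 1 and 2 were alike and TNF- replicate 3 was low, 1.33-fold above the highest TNF+ lung. The log2 fold change was -2.55 (SE 0.52, adjusted p = 0.00491) and was -2.98 without TNF- replicate 3 (adjusted p = 0.000181). Over the alternatives run, the adjusted p of Nppa reached 0.0381 and that of Ryr2 0.0353. Of the exon bases of Nppa, 61.5% are shared with the antisense gene Gm13054, which had 4 to 21 counts per lung against 88 to 1083 for Nppa, and the strand setting of the counting is not given in the sources used here.

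**Figure D2:**
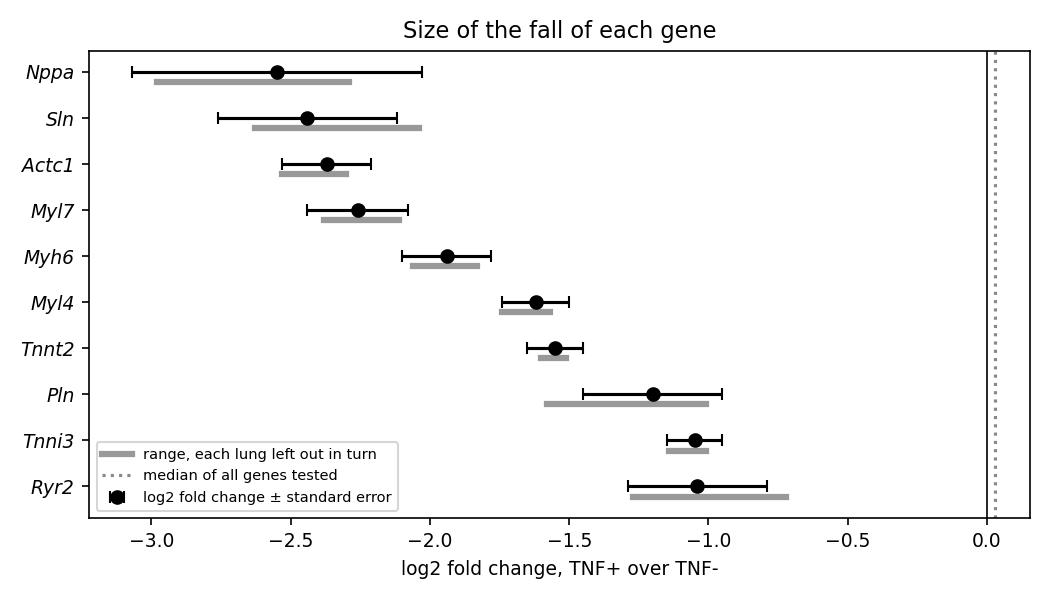
Log2 fold change of each of the 10 genes, TNF+ against TNF-, by edgeR, with bars of 1 standard error and the lowest and highest values with each lung left out in turn. All lie below 0, from -2.55 for Nppa to -1.04 for Ryr2, and Nppa and Sln have the widest standard errors.

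Promoter sequences were read to show what the genes share. RefSeq (GRCm38.p6) sequences matched 9 of the 10 genes, each relative to the start RefSeq lists, which differs from the GENCODE gene start by 320 bases for Myh6, 673 for Actc1, 1701 for Tnni3 and at most 20 for the others. The motifs searched on both strands in the 250 bases before that start were the CArG box of serum response factor, the MEF2 box, TATAAA, the GATA-type letters AGATAA and TGATAA with the forms AGATAG and TGATAG, then TNAAGTG of the NK2 type, AGGTGT of the T-box type and CATTCC of the TEAD type. A CArG box was found in 2 of the 9 promoters, Myl7 and Actc1, and in 1.4% of all 27025 promoters. GATA-type letters were found in 5 of 9 against 27.1% of all, CATTCC in 3 of 9 against 12.6%, TATAAA in 2 of 9 against 13%, AGGTGT in 2 of 9 against 12%, TNAAGTG in 1 of 9 against 10% and the MEF2 box in 0 of 9 against 3.01%. The shares are descriptions, and a match says nothing of whether a factor binds there. The sequences below are shown for the pair with a CArG box, for the hormone gene and for a calcium handling gene, 5′ to 3′ on the strand of the gene, with the letters of each match on either strand in capitals. Myl7 is chr11:5898783-5899032 (minus strand), Nppa chr4:148000472-148000721 (plus), Actc1 chr2:114052896-114053125 (minus) and Pln chr10:53337436-53337665 (plus), where the printed stretch of Actc1 and Pln has its last base 21 before the start. The Actc1 stretch lies inside the gene as GENCODE bounds it, in an intron of a transcript that starts farther upstream.
Myl7: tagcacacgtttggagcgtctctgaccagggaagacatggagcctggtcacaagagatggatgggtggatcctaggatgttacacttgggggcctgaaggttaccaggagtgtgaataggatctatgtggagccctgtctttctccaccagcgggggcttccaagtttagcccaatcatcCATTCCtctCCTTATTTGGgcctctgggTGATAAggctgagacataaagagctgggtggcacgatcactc
Nppa: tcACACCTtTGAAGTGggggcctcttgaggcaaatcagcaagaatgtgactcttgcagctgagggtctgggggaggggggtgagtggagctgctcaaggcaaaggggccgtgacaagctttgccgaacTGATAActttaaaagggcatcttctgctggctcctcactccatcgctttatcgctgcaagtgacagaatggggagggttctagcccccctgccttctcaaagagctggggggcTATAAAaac
Actc1: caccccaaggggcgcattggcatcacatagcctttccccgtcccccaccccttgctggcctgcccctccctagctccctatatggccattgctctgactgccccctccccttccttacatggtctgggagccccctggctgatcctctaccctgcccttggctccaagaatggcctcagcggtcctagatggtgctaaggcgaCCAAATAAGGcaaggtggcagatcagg
Pln: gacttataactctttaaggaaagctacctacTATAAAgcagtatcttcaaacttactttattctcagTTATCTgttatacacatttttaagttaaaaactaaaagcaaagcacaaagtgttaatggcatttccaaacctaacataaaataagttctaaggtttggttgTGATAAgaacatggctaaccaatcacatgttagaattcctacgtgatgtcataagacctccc
In Myl7 the CArG box lay 61 to 52 bases before the start, between CATTCC at 70 to 65 and TGATAA at 42 to 37. In Actc1 it lay 47 to 38 bases before the start. In Nppa, TATAAA lay 9 to 4 bases before the start, TGATAA 122 to 117, TNAAGTG 241 to 235 and, on the reverse strand, AGGTGT 248 to 243. Pln held TATAAA at 219 to 214, TGATAA at 82 to 77 and, on the reverse strand, AGATAA at 183 to 178.

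Levels were compared between genes as RPKM, the TMM-scaled CPM divided by the length of the principal transcript in kilobases. In TNF- lungs Myl7 was highest at 194 ± 27.1 RPKM, followed by Actc1 at 154 ± 14.9, Myh6 at 111 ± 19.0, Myl4 at 97.7 ± 13.5, Tnnt2 at 89.9 ± 5.15 and Tnni3 at 78.7 ± 3.75 (SD, n = 3). Nppa at 29.2 ± 17.1, Sln at 9.83 ± 4.31, Pln at 5.15 ± 0.570 and Ryr2 at 1.71 ± 0.667 RPKM formed the lower end. Myh6, Myl4 and Tnnt2 were neighbours that did not differ beyond their spread. In TNF+ lungs Myl7 was 40.6 ± 8.34 RPKM and Tnni3 38.1 ± 4.30, and Myl4, Tnnt2, Actc1 and Myh6 lay between 29.1 and 31.8, by this length. With the length of all annotated exons in place of the principal transcript, chosen after the data were seen, Myl4 was 19.9, Tnnt2 13.9 and Tnni3 34.8 RPKM in TNF- lungs, so the order of the contractile genes rests on the length taken. In TNF+ lungs the same length put Myh6 at 19.2% to 20.9% of the summed level of the 10 genes, and Myl4 and Tnnt2 at 4.61% to 5.26% and 3.42% to 3.85%. Fold changes do not depend on it.

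The share of Tnni3 in the summed RPKM of the 10 genes was 18.2 ± 0.931% in TNF+ and 10.3 ± 0.994% in TNF- lungs, and that of Actc1 was 12.1% to 15.6% and 18.4% to 21.4%. Myl7 had 19.2 ± 2.40% and 25.1 ± 1.38%. Among the 45 pairs that the 10 genes form, 23 had a ratio within lungs that did not overlap between the groups, which held for 59.6% of all 180851671 pairs of tested genes with a count in every lung, so the share among the 10 genes was no higher than among all genes. These ratios were compared after the values were seen and were not tested. Troponin I over cardiac actin, Tnni3/Actc1, was 1.19 to 1.41 in TNF+ and 0.456 to 0.565 in TNF- lungs, by the per-length levels. The atrial light chains, Myl7 over Myl4, stood at 1.04 to 1.40 in TNF+ and 1.97 to 2.00 in TNF- lungs. The pump regulators, Sln over Pln, stood at 0.604 to 1.06 and 1.25 to 3.09. With the length of all annotated exons, the share of Tnni3 was 12.0% to 13.6% in TNF+ and 5.63% to 7.16% in TNF- lungs, that of Actc1 17.5% to 22.4% and 23.5% to 28.2%, and Tnni3/Actc1 0.578 to 0.686 and 0.222 to 0.274. The size of these values thus rests on the length taken. A change of length scales a gene alike in every lung. Other pairs had overlapping ratios, among them Myl7/Actc1, which was 1.12 to 1.74 in TNF+ and 1.13 to 1.45 in TNF- lungs, and Myl4/Tnnt2, which was 1.03 to 1.04 and 0.881 to 1.26.

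**Figure D3:**
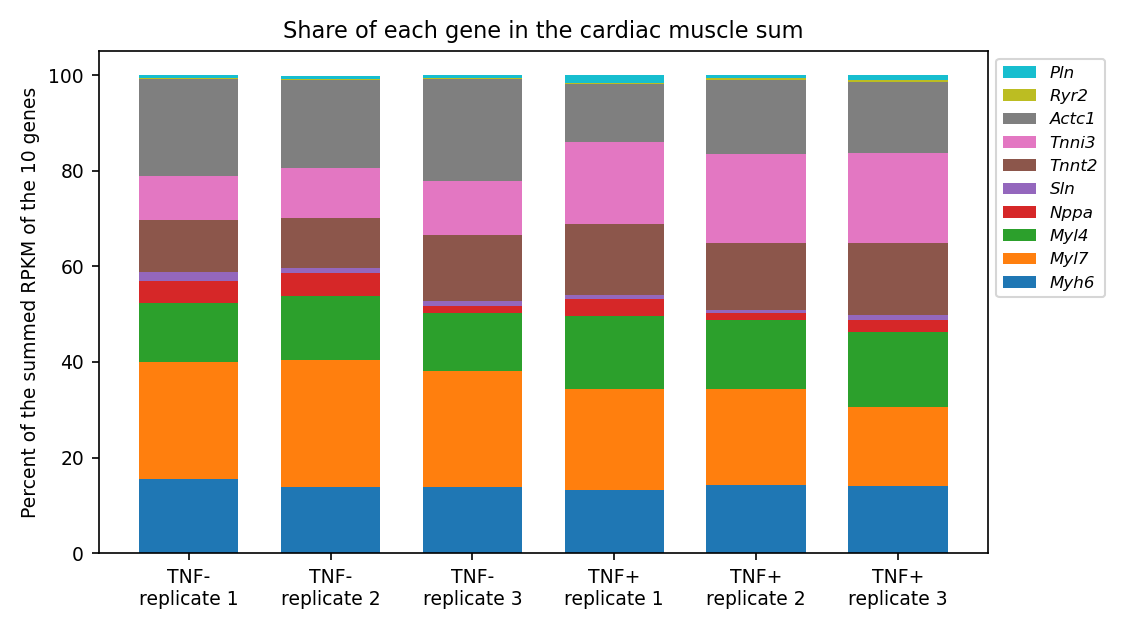
Stacked share (percent) of each of the 10 genes in their summed RPKM, 1 column for each lung of both groups. Tnni3 holds 18.2% on average in TNF+ and 10.3% in TNF- lungs, and Actc1 12.1% to 15.6% and 18.4% to 21.4%.

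Partner genes and isoforms of other muscle types were set beside the 10 genes. The α heavy chain exceeded the β chain in every lung. Myh6 over Myh7, by the per-length levels, was 5.52, 6.93 and 5.80 in TNF+ and 5.66, 5.92 and 5.32 in TNF- lungs, with overlapping groups. Myh7, the slow and ventricular β myosin heavy chain, fell by 2.05 on the log2 scale (SE 0.13, adjusted p = 1.52e-05 by edgeR). Of the 100-base windows of Myh6, 10% occur in another gene, mostly Myh7, so that reads of the pair can be mixed. The other 9 genes shared no such window. Acta2, the smooth muscle actin, fell by 0.90 on the log2 scale (adjusted p = 0.00244), and Actc1 over Acta2, by the per-length levels, was 0.298 to 0.449 in TNF+ and 0.778 to 1.45 in TNF- lungs.

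Of the ventricular markers, Myl2, Irx4 and Nppb had few counts. Myl2, the ventricular regulatory light chain, had 2, 7 and 20 counts in TNF+ and 0, 3 and 2 counts in TNF- lungs and was not tested. Irx4 had 0 to 2 counts and Nppb, the B-type natriuretic peptide, 0 to 8 counts. Myl3, the ventricular and slow skeletal light chain, had 49, 69 and 62 counts in TNF+ and 2220, 224 and 153 counts in TNF- lungs, with TNF- replicate 1 far above the rest (log2 fold change -3.67, adjusted p = 0.0176). Without that lung it was -1.46 (adjusted p = 0.00354), and Myl3 missed the threshold in 4 of 14 other settings. Hey2, a ventricular transcription factor, had a log2 fold change of 0.31 (adjusted p = 0.228). Of the 6 ventricular genes, 3 were tested and 2 fell, against 23.4% of all genes tested. The 6 ventricular genes summed to 34.0 to 37.8 CPM in TNF+ and 117 to 218 CPM in TNF- lungs, most of it Myh7.

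Of the isoforms tested, Tnni1 alone was called higher in the fit of all lungs. Ryr1, given below, was called higher too when TNF- replicate 1 was left out. Tnni1, the slow skeletal troponin I that the heart uses before birth, had 39, 26 and 56 counts in TNF+ and 6, 7 and 7 counts in TNF- lungs. Each TNF+ lung was above each TNF- lung, and Tnni1 rose by 2.79 on the log2 scale (SE 0.39, adjusted p = 0.000711 by edgeR). Tnni3 over Tnni1, by the per-length levels, stood at 23.3 to 55.7 in TNF+ and 422 to 476 in TNF- lungs. The counts of Tnni1 are small, and it is a gene of the skeletal list as well.

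Other genes used by cardiac muscle were lower as well. Whole lung counts do not tell which cells these transcripts come from. Of 24 other sarcomere and Z-disc genes, all 24 were tested and all 24 fell, against 23.4% of all genes tested. Their median log2 fold change was -1.78, with a range of -2.75 to -0.74. The groups did not overlap for 22 of them, which held with TNF+ lower for 28.1% of all genes tested. Tpm1, tropomyosin, fell by 0.75 on the log2 scale (adjusted p = 0.00418), Des, the intermediate filament desmin, by 0.74 (adjusted p = 0.00679) and Cryab, a small heat shock protein of the Z-disc, by 1.76 (adjusted p = 5.87e-05). Nrap, which links actin to the cell junction, had 50, 89 and 139 counts in TNF+ and 1443, 338 and 299 counts in TNF- lungs and the lowest log2 fold change of the list (-2.75, adjusted p = 0.00853), which was -1.62 without TNF- replicate 1 (adjusted p = 0.00382). With robust dispersion, Nrap missed the threshold (adjusted p = 0.0589). Of these 24 genes 21 were highest in TNF- replicate 1, the lung with skeletal muscle transcripts, against 5 of the 10 pulmonary vein genes. Without that lung, 21 of the 24 fell, against 19.8% of all genes tested. With robust dispersion, or without TNF+ replicate 2 or 3, 20 fell, against 23.5%, 19% and 20.8% of all genes tested.

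Among 22 calcium handling, channel and junction genes, 18 fell, 1 rose and 3 did not pass the test, with a median of -1.65. Of all genes tested, 23.4% fell and 24% rose. Kcnj5, a subunit of the acetylcholine-gated potassium channel of atrial muscle, had 6, 15 and 18 counts in TNF+ and 146, 156 and 131 counts in TNF- lungs, and its log2 fold change of -3.28 (SE 0.30, adjusted p = 8.20e-05) was the lowest of the list. Kcnq1, a potassium channel, fell by 1.23 on the log2 scale (adjusted p = 0.000124), Cacna1c, the L-type calcium channel, by 0.71 (adjusted p = 0.0087, and 0.0512 without both lungs that stand apart) and Atp2a2, the pump that Pln and Sln restrain, by 0.94 (adjusted p = 0.00241). Pln over Atp2a2, by the per-length levels, was 0.0344 to 0.0722 in TNF+ and 0.0456 to 0.0717 in TNF- lungs, which overlap. Slc8a1, the sodium-calcium exchanger, was the gene of this list that rose (log2 fold change 0.68, adjusted p = 0.0162). It missed the threshold in 3 of 14 other settings, with an adjusted p of at most 0.0721.

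Energy supply genes fell in 8 of 9 cases, against 23.4% of all genes tested, with a median of -1.55. Mb, myoglobin, fell by 1.95 on the log2 scale (adjusted p = 0.00551), Cox6a2, a muscle subunit of cytochrome oxidase, by 1.00 (adjusted p = 0.00097) and Ckm, muscle creatine kinase, by 3.62 (adjusted p = 0.0202). Ckm had 9119 counts in TNF- replicate 1 and 704 and 624 in the other TNF- lungs. Without that lung the log2 fold changes were -1.21 for Ckm (adjusted p = 0.00171) and -1.29 for Mb (adjusted p = 0.00134). Ckm missed the threshold in 5 of 13 other settings. Eno3, muscle enolase, had a log2 fold change of -0.99 that did not pass (adjusted p = 0.0571), and -0.35 without that lung (adjusted p = 0.0444). Of the 9 genes, 8 were highest in TNF- replicate 1.

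The transcription factor list of 14 genes was mixed: 11 were tested, 5 fell, 1 rose and 5 did not pass, with a median of -0.51. The shares of all genes tested were 23.4% for a fall and 24% for a rise. Without TNF- replicate 1, or without TNF- replicate 2, 3 fell, against 19.8% and 19.5% of all genes tested. Nkx2-5, the cardiac homeobox factor, had 2, 3 and 6 counts in TNF+ and 17, 16 and 11 counts in TNF- lungs and fell by 1.78 on the log2 scale (adjusted p = 0.0149). It missed the threshold in 5 of 13 other settings, with an adjusted p of at most 0.11. Mef2c, a factor of muscle and of other lineages, rose by 0.64 (adjusted p = 0.00326). Mef2a (0.11, adjusted p = 0.585) and Nr2f2 (-0.02, adjusted p = 0.911), a factor of atrial and venous identity, had log2 fold changes near 0. The summed levels of this list were 242 to 270 CPM in TNF+ and 215 to 289 CPM in TNF- lungs, and these overlapped. Mef2a alone had means of 115 and 107 CPM.

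**Figure D4:**
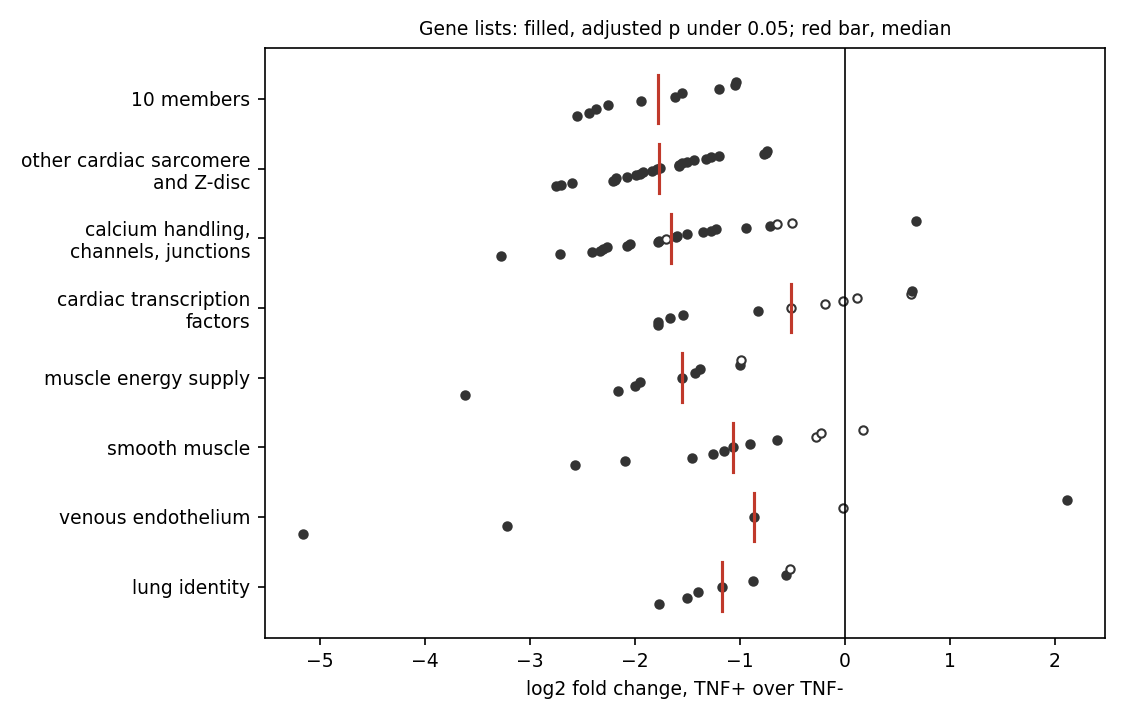
Log2 fold changes (TNF+ against TNF-) of the tested genes of the 10 members and 7 other lists, each point 1 gene, filled where the adjusted p is under 0.05, and the red bar the list's median. All points of the 10 pulmonary vein genes and of the 24 sarcomere genes lie below 0, while the transcription factor list spans -1.78 to 0.64.

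Markers of other cells of the lung also differed between the groups. Of 11 smooth muscle genes, the muscle of airways and vessels, 8 fell and 3 did not pass, with a median of -1.07. A fall was called for 23.4% of all genes tested, the share to set beside the lung markers below as well. Cnn1, calponin, fell by 2.57 on the log2 scale (adjusted p = 3.44e-05), Myh11, smooth muscle myosin, by 1.46 (adjusted p = 0.000226) and Mylk, its light chain kinase, by 1.07 (adjusted p = 0.000369), while Synpo2 had a log2 fold change of 0.17 (adjusted p = 0.377). The smooth muscle sum was 775 to 866 CPM in TNF+ and 1370 to 1700 CPM in TNF- lungs, 1.89-fold lower, against 3.68-fold for the 10 pulmonary vein genes. The pulmonary vein sum over the smooth muscle sum was 0.394 to 0.535 in TNF+ and 0.697 to 1.14 in TNF- lungs. Over the sum of the venous endothelium list, described below, it was higher in TNF+ lungs, 1.02 to 1.09 against 0.81 to 0.853. Over the lung marker sum it was 0.0162 to 0.0226 in TNF+ and 0.0283 to 0.039 in TNF- lungs. The 7 lung markers were 2.03-fold lower in sum, 6 of them fell and Sftpc did not pass (log2 fold change -0.52, adjusted p = 0.0837). Sftpb fell by 0.88 (adjusted p = 0.00314) and Scgb1a1, the club cell secretory protein, by 1.77 (adjusted p = 0.0022).

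The venous endothelium list was 4.62-fold lower in TNF+ lungs in sum, with 334 to 380 CPM against 1420 to 1830 CPM. Vwf, the clotting factor of endothelium, made up 1230 CPM of this sum on average in TNF- lungs and 132 CPM in TNF+ lungs, and the fold of the sum rests mainly on it. It fell by 3.22 on the log2 scale (SE 0.18, adjusted p = 9.31e-06 by edgeR). Slc6a2, the noradrenaline transporter, had 3.14, 5.50 and 3.18 CPM in TNF+ and 182, 150 and 92.6 CPM in TNF- lungs. Its groups were far apart, and it fell by 5.16 (SE 0.33, adjusted p = 1.75e-05). Ephb4 fell by 0.87 (adjusted p = 0.000938), Bst1 rose by 2.11 (adjusted p = 2.00e-05) and Nr2f2 did not pass. Thus 3 of 5 fell, against 23.4% of all genes tested.

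Skeletal muscle and squamous epithelium genes were high in a single lung, and fat genes were uneven between lungs. The 16 skeletal genes summed to 24.4 to 66.6 CPM in TNF+ lungs and to 2150, 23.4 and 24.7 CPM in TNF- replicates 1, 2 and 3, with 15 of 16 highest in TNF- replicate 1. Of the 13 tested, 3 fell and Tnni1 rose, and the number that fell was 1 without TNF- replicate 1 and 11 without TNF- replicate 3. The shares of all genes tested that fell in these fits were 23.4%, 19.8% and 23.4%. With all lungs, 23.4% is also the share to set beside the squamous and fat lists. Acta1, skeletal α-actin, had 24678 counts in TNF- replicate 1 and 66 to 433 in all others (log2 fold change -5.37, adjusted p = 0.0654), Tnnt3 had a log2 fold change of -4.69 (adjusted p = 0.0485) and Myh4 of -6.38 (adjusted p = 0.0445). Without TNF- replicate 1 they were 1.22 for Acta1, -0.49 for Tnnt3 and 0.61 for Myh4, and none of these passed (adjusted p = 0.231, 0.664 and 0.483). Ryr1, the skeletal calcium release channel, had 250, 298 and 294 counts in TNF+ and 1870, 72 and 71 counts in TNF- lungs. Ryr1 had a log2 fold change of -1.07 (adjusted p = 0.454), which without TNF- replicate 1 was 2.18 (adjusted p = 0.00019), the opposite direction to Ryr2. The 9 squamous genes were all highest in TNF- replicate 1, with Sprr3 at 0 counts in every TNF+ lung, and 4 of 5 tested fell on the log2 scale, Krt5 by 6.54, Rptn by 6.58, Calml3 by 3.29 and Sbsn by 1.69, while Tgm3 had a log2 fold change of -4.54 (adjusted p = 0.0551). Without TNF- replicate 1 these values were -2.16 for Krt5, -3.12 for Rptn, -1.43 for Calml3, -0.84 for Sbsn, which no longer passed (adjusted p = 0.0767), and 0.47 for Tgm3. Krt5 missed the threshold in 4 of 12 other settings, Rptn in 1 of 12, Calml3 in 3 of 14 and Sbsn in 6 of 14. The 6 fat genes summed to 3.79 to 38.1 CPM in TNF+ and 34.1 to 68.7 CPM in TNF- lungs. Of the 4 tested, Cidec fell by 1.82 (adjusted p = 0.0252) but missed the threshold in 5 of 14 other settings, and Adipoq (-1.64), Plin1 (-1.61) and Retn (-1.31) did not pass. TNF+ replicate 3 had 346 counts of Adipoq against 13 and 12 in the other TNF+ lungs. Without it all 4 fell, with log2 fold changes of -4.70 for Adipoq, -4.54 for Plin1, -4.26 for Retn and -2.91 for Cidec. The part of smooth muscle, skeletal muscle, squamous, fat, venous and lung markers in the result for the 10 genes was not tested. The 10 genes, and 19.8% of all genes tested, were called lower as well without TNF- replicate 1. In the TNF- lungs that remained, the skeletal list summed to 23.4 and 24.7 CPM and the squamous list to 19.5 and 32.7 CPM. In TNF+ lungs these sums were 24.4 to 66.6 CPM and 11.3 to 16.4 CPM, so the squamous sums were still lower there.

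**Figure D5:**
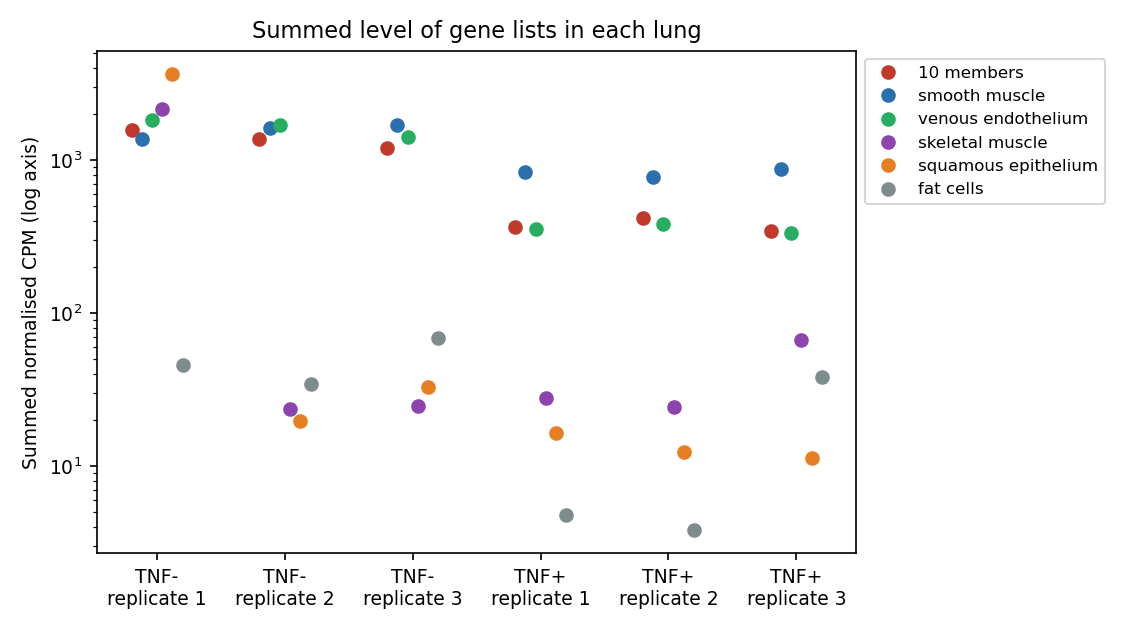
Summed CPM (log axis) of the 10 members and of the smooth muscle, venous endothelium, skeletal muscle, squamous epithelium and fat cell lists in each of the 6 lungs, each point 1 list in 1 lung. The pulmonary vein genes sum to 341 to 415 CPM in TNF+ and 1190 to 1560 CPM in TNF- lungs, while the skeletal and squamous lists are high in TNF- replicate 1 alone.

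Within the groups the 10 genes did not share one order of lungs. TNF- replicate 3 was the lowest of its group for 7 of the 10 genes, TNF- replicate 1 the highest for 5 and TNF- replicate 2 the highest for 4. Among TNF+ lungs, replicate 2 was the highest for 7 genes and replicate 3 the lowest for 5. Their mean profile, as log2 CPM centred on each gene's mean, was -0.79, -0.89 and -0.98 in TNF+ and 1.13, 0.94 and 0.57 in TNF- replicates 1, 2 and 3. By root mean square distance over the 6 lungs, Myl4 (0.111) and Myh6 (0.134) were the members nearest to that profile and Nppa (0.652) the farthest. For 14 genes outside the set the distance was smaller than for Myl4. Of 14984 genes compared, the nearest included Lepr (0.048), Rtkn2 (0.053), Lrp4 (0.080), Adgrf5 (0.082), Eps8l2 (0.082), AI661453 (0.099), Cd36 (0.103), Cped1 (0.104) and Hs3st1 (0.104), and none of the 30 nearest was in a cardiac or other list used here. Popdc2, a membrane protein of cardiac muscle, was the first list gene, at rank 40, and Myh7 was at rank 61. With 6 lungs in 2 groups, a profile of this kind mostly holds the group difference.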

How the data were processed

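Whole lungs of 3 TNF+ and 3 TNF- mice were sequenced as single-end 100 bp reads of stranded poly(A) libraries. Per the submitters' processing notes, reads were trimmed with Trimmomatic 0.36, mapped with STAR 2.5.2b to GRCm38.p5 (mm10) and counted with featureCounts. The authors deposited raw counts per gene symbol without normalization. The gene annotation and strand setting of the counting are not given in the sources used here.

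Counts were filtered with filterByExpr, normalized by TMM and compared between genotypes, without covariates, by the quasi-likelihood test of edgeR 4.0.16 (R 4.3.3) in one fit over all genes, with p-values adjusted by Benjamini-Hochberg and a threshold of 0.05. The methods name DESeq2, which was run as an alternative (version 1.42.0). The scripts were tested on simulated data. A prior count of 2 was added for log2 CPM. Gene positions and lengths came from GENCODE M21. The members and gene lists were chosen with earlier results of these data known. Named were the members, their paralogs and partners, in each list the 3 most abundant genes and those with the highest and lowest fold change (all of a list with 5 or fewer tested genes), and the 10 genes nearest in profile, of which 1 is not reported here. Gm42418, Gm13054, Dnaaf3, Irx4, Sprr3, Popdc2 and the pair ratios were chosen after values were seen. Replicates are separate mice. Alternatives were other scalings, filters, dispersion settings, the replicate number as a block and each lung left out.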

Additional observations from a re-analysis of the deposited data

How the results depend on the processing

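All 10 pulmonary vein cardiac muscle genes were called lower under each of the 14 other settings, where 13.1% to 24.9% of all genes tested were, and the log2 change of their summed level lay between -1.97 and -1.78 with single lungs left out. Over all genes, 9096 were called, 7347 to 9164 with 1 lung left out and 6064 without both lungs that stand apart. The fit with a replicate block called 7686 genes and all 10 members. The labels do not say whether same-numbered mice were paired. Same-numbered deviations correlated at -0.15, 0 and -0.24, which cannot decide it, since deviations from the mean of 3 lungs depend on each other. Among the genes named by rule, Tnnt3, Ckm and Myh4 were no longer called with the block and Adipoq and Plin1 were. Genes called lower with it were 23 of 24 sarcomere, 17 of 22 calcium handling, 4 of 11 transcription factor and 0 of 13 skeletal genes. The share of all genes tested called lower was 20.1%.

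Counts called in the lists of other tissues changed most, and apart from the missing DESeq2 values the cause was not tested. Skeletal muscle genes called were 4, against 10 with library totals only, 2 with DESeq2 (which gave 10 of 13 no adjusted p), 12 with no filter on low counts, 1 with robust dispersion, 1 with the replicate block, 2 without both lungs and 1 to 12 with each lung left out. Squamous genes called were 4, against 2 with DESeq2 (3 of 5 without an adjusted p), 9 with no filter, 0 with edgeR's robust dispersion (1 at an unadjusted p under 0.05) and 1 to 5 with each lung left out. Fat cell genes called were 1, against 0 with edgeR's robust dispersion (0 at an unadjusted p under 0.05), 3 with the block, 0 without both lungs (1 unadjusted) and 0 to 4 with each lung left out. Ventricular genes called were 2, against 1 with robust dispersion and 1 to 2 with each lung left out.

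Signs turned for genes outside the members. With each lung left out, log2 fold changes ranged from -6.65 to 1.22 for Acta1, -1.61 to 2.18 for Ryr1, -6.96 to 0.61 for Myh4 and -5.11 to 0.47 for Tgm3, the highest value in each case without TNF- replicate 1. They ranged from -0.17 to 0.07 for Nr2f2 and from -0.04 to 0.18 for Mef2a. Without both lungs that stand apart, they were 1.53 for Acta1, 2.11 for Ryr1, 0.10 for Myh4, 0.42 for Tgm3 and 0.10 for Nr2f2, and Ryr1 was 0.71 with the block. Among the remaining alternatives for single genes, 822 values kept direction and call, 50 lost the call and 23 gained it. With 3 mice a group, depth limits low genes such as Myl2, Nppb and Nkx2-5.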
